A study of Drosophila melanogaster with 4 samples.

Results

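Heat shock proteins and chaperones of Drosophila melanogaster were followed in poly(A) RNA of testes, in bam mutant males and in males with a germline knockdown of Caf40. The genes were chosen by name: 31 genes whose symbol begins with Hsp, Hsc70 or CCT, and 9 genes added by symbol (DnaJ-1, Droj2, stv, Hsf, Hop, Cdc37, Gp93, Trap1 and l(2)efl). This gave 40 of the 17559 gene IDs in the count files. The annotation lists Hop, the Hsp70/Hsp90 organizing protein, as Stip1, and the gene formerly called Hsc70Cb as Hsp110. Of the 40 genes, 39 passed the filter on low counts and 1, Hsp22, had 0 counts in every library.

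Chaperones bind unfolded or partly folded proteins and keep them from aggregating. Hsp70 proteins hold and release their clients in cycles of ATP hydrolysis that J-domain proteins start and exchange factors end, Hsp90 finishes the folding of kinases and receptors, small heat shock proteins hold denatured proteins until Hsp70 takes them over, and the Hsp60 and CCT complexes fold proteins inside a closed ring. Heat shock factor, Hsf, switches on the inducible genes of these families upon heat, while the cognate genes are transcribed in unstressed cells, and several members of both kinds are known to be active in the fly germ line without heat.

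The bam mutant males were bam1/bam86 and, per the study's methods, carried the CyO balancer. They were kept at 22 °C until mid and late pupal stages, exposed to 37 °C for 30 min, although they carried no heat shock promoter construct, put back at 25 °C and dissected 48 h later. The knockdown males were Caf40RNAi(BL67987)/nosGAL4. In them a hairpin against Caf40, part of the CCR4-NOT complex that shortens poly(A) tails, was driven in early germ cells, and per the methods the driver strain also carried a Dicer-2 transgene. They spent 3 days at 25 °C, were moved to 29 °C, and were dissected 0 to 2 days after eclosion. The labels give no adult age for the bam mutant males, while the methods give 0 to 2 days without parting the groups. Each group had 2 libraries, and each library was made from 150 pairs of testes, which the methods describe as testes plus seminal vesicle. The rearing regimes were not crossed with the genotypes, so genotype, strain, rearing temperature and heat shock cannot be told apart in any value that follows. This bears on heat shock genes in particular, since one group had been given a heat shock 48 h before dissection and the other was raised at 29 °C. The labels do not say whether the libraries of a group came from separate crosses, so p-values measure only the spread between these libraries.

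The libraries held 26984758 to 118209171 gene counts, and the bam mutant libraries were the deeper ones. After random thinning of both bam mutant libraries to the mean knockdown depth, 22 chaperones were higher and 5 lower, with a median log2 fold change of 0.35, beside 21, 4 and 0.35 at full depth. Caf40, annotated as Rcd-1, had 204 and 207 CPM (counts scaled to a common library total after adjustment by trimmed mean scaling) in the bam mutant, against 13.5 and 16.2 CPM in the knockdown, a 13.9-fold lower level that matches the labels. Of the marker genes of other cell types, 12 of 12 germline genes tested were higher in the knockdown (median log2 fold change 0.61, and 3 higher and 3 lower once the list itself set the scale, summed level 2205 and 2158 CPM against 3651 and 3285 CPM). Lower levels were found for 7 of 10 somatic cyst and hub genes (526 and 536 CPM summed against 364 and 326 CPM, with 1 higher), 7 of 9 muscle genes (1829 and 2003 against 1040 and 1172 CPM) and 4 of 4 hemocyte genes (224 and 186 against 40.1 and 27.7 CPM). All 13 accessory gland genes tested were higher in the knockdown (10.4 and 3.27 against 424 and 49.3 CPM summed, most of it in knockdown replicate 1), as were 4 of 8 spermatocyte genes (1 lower, 136 and 127 against 161 and 153 CPM) and 2 of 4 fat body genes (77.5 and 90.9 against 107 and 96.4 CPM), although with scaling to the germline list spermatocyte genes were 2 higher and 2 lower and fat body genes 0 higher and 1 lower. Of these markers, Acp29AB was at 0 in bam mutant replicate 2, He in knockdown replicate 1, and sa and Acp98AB in knockdown replicate 2. Their part in the chaperone values was not tested, and in bulk tissue fewer cells of a type and less RNA per cell cannot be told apart.

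Chaperone RNA took a larger share of the knockdown libraries. The 40 genes held 1.97% and 1.94% of gene counts in the bam mutant libraries, against 2.91% and 2.92% in the knockdown libraries, so the groups did not overlap and the libraries of a group lay within 0.03 percentage points of each other. In edgeR's quasi-likelihood test, with p-values adjusted by Benjamini-Hochberg over all 10854 genes tested, 25 of the 39 tested members were called at an adjusted p under 0.05. That was 64.1% of members, beside 63.7% of all genes called. The calls were unevenly split by direction: 21 members (53.8%) were higher in the knockdown, beside 30.7% of all genes, and 4 (10.3%) were lower, beside 33% of all genes, a split that turned to 8 higher and 22 lower with scaling to germline marker genes. The CPM of the groups did not overlap for 30 members, or 76.9%, beside 83.4% of all genes. The median log2 fold change was 0.35, beside 0.03 over all genes tested.

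**Figure D1:**
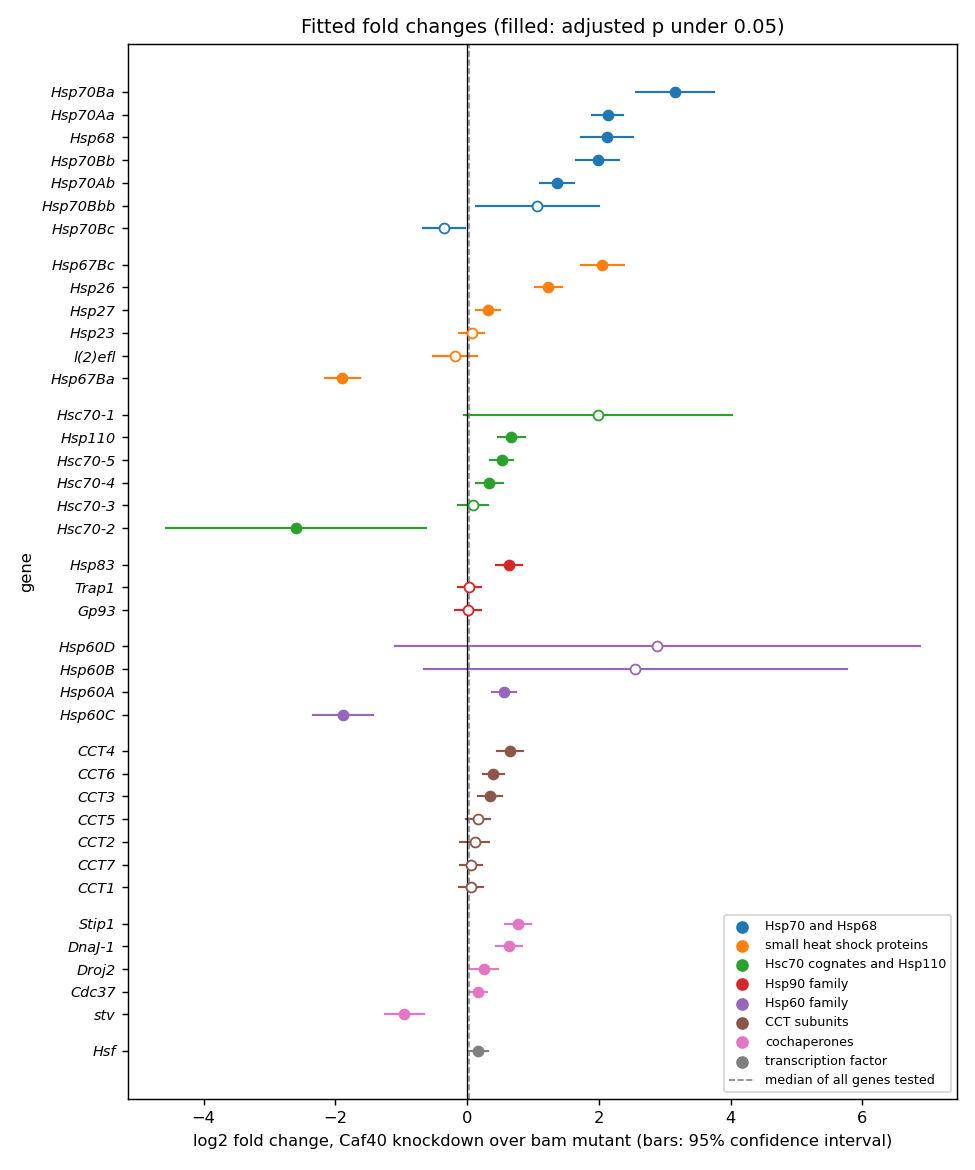
Fitted log2 fold change of each of the 39 tested chaperone genes, knockdown over bam mutant, with its 95% confidence interval (x axis), grouped by class (y axis, colours). Filled points were called at an adjusted p under 0.05, the dashed line is the median of all genes tested (0.03), and the values run from -2.60 for Hsc70-2 to 3.16 for Hsp70Ba.

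These directions rest on the scaling of the libraries. When the libraries were scaled to the germline marker list instead, the median of all genes moved by -0.66, 739 genes were higher and 7061 lower (9.47% of calls higher, beside 48.2%), and the chaperones split into 8 higher and 22 lower with a median of -0.31. The 8 that were still higher were Hsp68, Hsp70Aa, Hsp70Ab, Hsp70Ba, Hsp70Bb, Hsp26, Hsp67Bc and Stip1. Upper quartile scaling left 30 chaperones higher and 3 lower, with the all-gene median moved by 0.15. Calls for these 8 higher genes and for Hsp67Ba, Hsp60C and stv, which were lower, kept their direction and their side of the threshold in each of the 15 alternative settings that gave them a value.

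The heat-inducible Hsp70 genes and their relative Hsp68 had the highest median log2 fold change of the classes, 1.98. In this class 5 of 7 genes were higher and none lower, beside 30.7% and 33% of all genes. Hsp70 is made from near-identical gene copies, Hsp70Aa and Hsp70Ab on chromosome 3R from 11954163 to 11960909 and Hsp70Ba, Hsp70Bbb, Hsp70Bb and Hsp70Bc from 12465453 to 12511461 (Ensembl annotation of BDGP6.54). Pairs mapping to several places were left out of the deposited counts, so how reads divide among the copies is uncertain. The sum over copies does not rest on that division, but it lacks the same pairs and is a partial count. Whether the share of Hsp70 pairs left out differed between the groups was not tested. The 6 copies together had 238 and 223 CPM in the bam mutant libraries, against 933 and 819 CPM in the knockdown libraries. Both knockdown libraries were above both bam mutant libraries, and the means were 231 ± 10.4 CPM and 876 ± 80.2 CPM (SD, n = 2). The summed level was 3.8-fold higher in the knockdown (log2 fold change 1.93, SE 0.09, 95% confidence interval 1.70 to 2.15, adjusted p = 6.1e-05 by edgeR's quasi-likelihood test), and 1.27 on the log2 scale with germline scaling.

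Hsp70Aa was the main source of uniquely assigned Hsp70 reads, with 57.4% and 60.4% of the summed counts in the bam mutant, against 68.7% and 67.0% in the knockdown. Its level was 137 and 135 CPM in the bam mutant, against 641 and 549 CPM in the knockdown (log2 fold change 2.13, SE 0.09, adjusted p = 4.9e-05). Hsp70Ab, its inverted neighbour, had 28.9 and 30.8 CPM against 83.7 and 69.6 CPM (1.36, SE 0.10). The groups of both A copies stood well apart. Hsp70Bb had 47.1 and 36.2 CPM in the bam mutant, against 165 and 164 CPM in the knockdown (1.98, SE 0.13). Hsp70Ba had 3.02 and 1.99 CPM against 24.1 and 20.6 CPM (3.16, SE 0.24), the largest fitted change of any member, though at a low level. The remaining B copies went different ways and were not called. Hsp70Bbb had 0.777 and 0.880 CPM against 2.09 and 1.38 CPM (1.07, SE 0.37, adjusted p = 0.0505), and Hsp70Bc had 21.6 and 18.5 CPM against 17.0 and 14.3 CPM (-0.35, SE 0.13, adjusted p = 0.0571). Both missed the threshold narrowly and passed it in several alternatives: without knockdown replicate 2 Hsp70Bbb was called at 1.34, and without bam mutant replicate 2 or knockdown replicate 1 Hsp70Bc was called at -0.56 or -0.53. With germline scaling Hsp70Bc was called lower (-1.01) and Hsp70Bbb was not called (0.40). Hsp70Bc made up 9.09% and 8.27% of the summed Hsp70 counts in the bam mutant, against 1.83% and 1.75% in the knockdown.

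Hsp68, a single inducible gene of the Hsp70 family on the same chromosome, had 190 and 139 CPM in the bam mutant libraries, against 721 and 713 CPM in the knockdown libraries. The level was 4.36-fold higher in the knockdown (log2 fold change 2.12, SE 0.15, adjusted p = 0.00021), close to the change of Hsp70Aa, and the groups did not overlap although the bam mutant libraries differed from each other more than the knockdown libraries did. As a measure that no scaling enters, counts were set against Hsc70-4, the main cognate Hsp70, in the same library; the pairs for such ratios were chosen after the values were seen. Summed Hsp70 counts were 5.15% and 4.96% of Hsc70-4 counts in the bam mutant, against 15.5% and 14.9% in the knockdown, a 3.01-fold higher ratio. Hsp68 counts were 4.11% and 3.09% against 12% and 13.0%, a 3.47-fold higher ratio. Summed Hsp70 and Hsp68 therefore differed between the groups more than Hsc70-4 did.

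**Figure D2:**
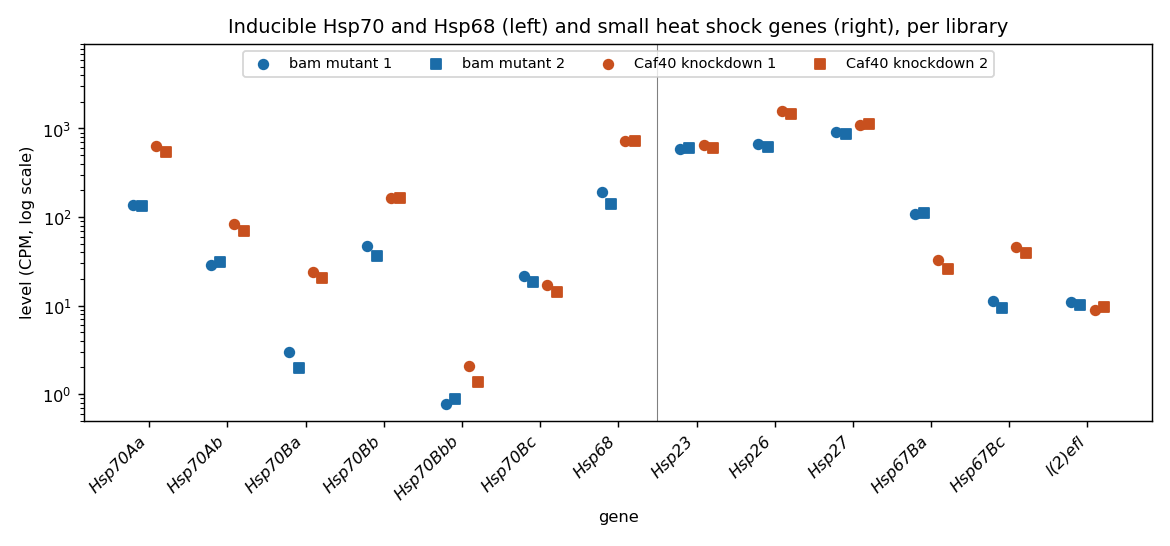
Level in CPM (y axis, log scale) of the inducible Hsp70 copies and Hsp68 (left of the line) and of the small heat shock genes with counts (right), with 1 point per library, circles for replicate 1 and squares for replicate 2. Hsp68 lies at 190 and 139 CPM in the bam mutant but at 721 and 713 CPM in the knockdown, whereas Hsp23 overlaps between the groups and Hsp67Ba is lower in the knockdown.

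The small heat shock genes did not move as a block. Of 7 genes, 6 were tested, 3 were higher, 1 was lower and 2 were not called, with a median log2 fold change of 0.20. The share called was 66.7%, near the 63.7% of all genes. Of them, 6 lie in a cluster of 14.2 kb on chromosome 3L from 9371511 to 9385694, where higher, lower and uncalled genes were next to each other. Hsp26, a cytosolic small heat shock protein, had 665 and 620 CPM in the bam mutant, against 1580 and 1441 CPM in the knockdown (log2 fold change 1.23, SE 0.08, adjusted p = 0.00016). Hsp67Bc, whose protein binds the cochaperone Starvin in fly cells, had 11.4 and 9.39 CPM against 46.4 and 39.6 CPM (2.05, SE 0.13, adjusted p = 0.00013). Both were clearly apart between the groups. Hsp67Ba, a less studied small heat shock gene next to Hsp26, went the other way with 107 and 110 CPM in the bam mutant, against 32.4 and 26.1 CPM in the knockdown (-1.89, SE 0.11, adjusted p = 9.5e-05), a 3.71-fold lower level. In read pairs assigned to either strand of Hsp67Ba, the opposite strand took 4.36% in the bam mutant, against 14.6% in the knockdown, the highest such share of any member. Opposite-strand counts were 545 and 474 in the deeper bam mutant libraries, against 156 and 139 in the knockdown. Sense counts were 12101 and 10279 against 975 and 757. The higher share therefore does not by itself show more opposite-strand RNA in the knockdown.

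Hsp27, a small heat shock protein found in nuclei, had 914 and 856 CPM in the bam mutant, against 1097 and 1112 CPM in the knockdown. The difference was small (log2 fold change 0.32, adjusted p = 0.011) and lost its call without bam mutant replicate 2 (0.18). Hsp27 was also not called in edgeR's test with no filter beyond 1 count (0.17, adjusted p = 0.077), and it reversed to -0.33 with germline scaling. Hsp23, its cytosolic neighbour, had 591 and 602 CPM against 656 and 597 CPM, which overlapped (0.07, 95% confidence interval -0.12 to 0.26, adjusted p = 0.44), and it was called at 0.14 without knockdown replicate 2. l(2)efl, an alpha-crystallin family gene outside the cluster, had 11 and 10.2 CPM against 8.97 and 9.75 CPM (-0.18, adjusted p = 0.27). Hsp22, whose protein is mitochondrial, had 0 counts in every library, but all 1900 of its exonic bases are shared on the same strand with CG4456 in the annotation used here, and the count of 0 therefore gives no level for it. CG4456 had 0 to 4 counts per library. Ratios within a library showed the same unevenness: Hsp26 counts were 1.12 and 1.03 times those of Hsp23 in the bam mutant, against 2.41 and 2.41 times in the knockdown, and Hsp67Bc counts were 10.6% and 8.51% of Hsp67Ba counts against 143% and 152%, so the order of that pair was reversed.

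**Figure D3:**
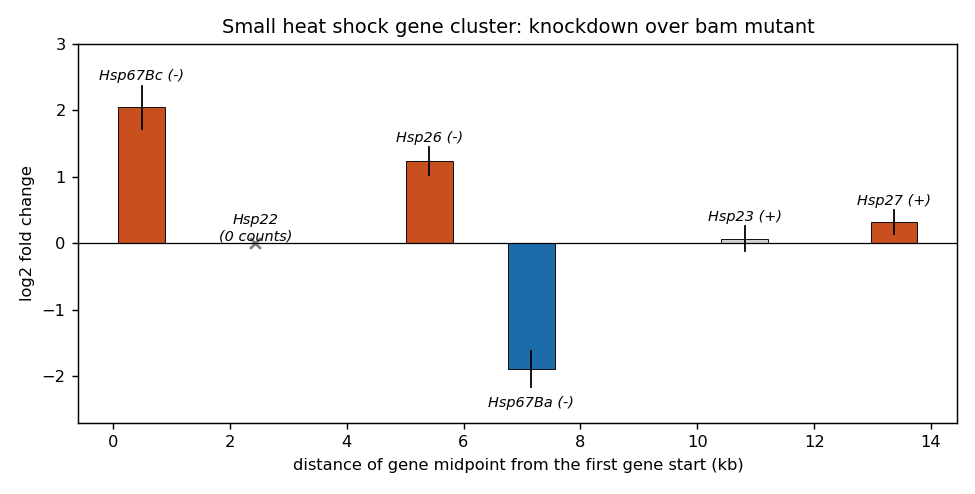
Log2 fold change of the small heat shock genes of the 3L cluster (y axis, bars, with 95% confidence intervals as lines) by the distance of each gene's midpoint from the first gene start in kb (x axis), with the gene's strand in brackets. Orange bars were higher, the blue bar lower and the grey bar not called, and Hsp67Ba (-1.89) lies next to Hsp26 (1.23). Hsp22 is marked by a cross because it had no counts.

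The cognate Hsc70 genes and the exchange factor Hsp110 were the largest class by share, with 0.62% of gene counts in each bam mutant library and 0.86% and 0.85% in the knockdown libraries. Hsc70-4, the main cytosolic Hsp70 of unstressed cells, had 4619 and 4502 CPM in the bam mutant, against 6008 and 5505 CPM in the knockdown (log2 fold change 0.34, SE 0.08, adjusted p = 0.015). The groups did not overlap, yet the call was lost without bam mutant replicate 2 (0.23). It was also lost in edgeR's test with no filter beyond 1 count (0.19, adjusted p = 0.12), and the direction was reversed with germline scaling (-0.32). Hsp110, which releases ADP from Hsp70, had 715 and 704 CPM against 1192 and 1070 CPM (0.67, adjusted p = 0.0011, and 0.01 with germline scaling). Hsc70-5, the mitochondrial Hsp70, was also higher (0.52, adjusted p = 0.0016, and -0.14 with germline scaling). Hsc70-3, the Hsp70 of the endoplasmic reticulum known in mammals as BiP, was at 566 and 587 CPM against 660 and 569 CPM, which overlapped (0.09, 95% confidence interval -0.14 to 0.32), and it was called at 0.20 without knockdown replicate 2.

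The Hsp90 family was led by Hsp83, the cytosolic Hsp90. It had 4542 and 4261 CPM in the bam mutant, against 7053 and 6621 CPM in the knockdown, means of 4402 ± 199 CPM and 6837 ± 305 CPM (SD, n = 2). The level was 1.55-fold higher in the knockdown (log2 fold change 0.64, SE 0.08, adjusted p = 0.0014), and the fitted change was -0.02 with germline scaling. Gp93, the Hsp90 of the endoplasmic reticulum, and Trap1, that of mitochondria, overlapped between the groups and were not called (0.01, 95% confidence interval -0.19 to 0.22, and 0.03, -0.14 to 0.21). Hsp83 counts were 98.3% and 94.7% of Hsc70-4 counts in the bam mutant, against 117% and 120% in the knockdown. Together Hsp83 and Hsc70-4 made up 44.2% to 44.6% of all chaperone counts in every library.

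Measured per kilobase of exon, Hsc70-4 and Hsp83 were also the most abundant members, at 1679 and 1487 CPM per kb in the bam mutant, against 2120 and 2310 CPM per kb in the knockdown, so they changed places. Next came the small heat shock genes Hsp23 (675 CPM per kb), Hsp26 (636) and Hsp27 (542) in the bam mutant. In the knockdown the third place went to Hsp26 with 1495 CPM per kb, ahead of Hsp23 with 709 and Hsp27 with 677. By the same measure Hsp68 went from 73.7 to 321 CPM per kb. In the bam mutant Hsp68 lay below Hsp110 (189 CPM per kb) and Hsp60A (203), and in the knockdown it lay beside them (302 and 299), an order that was not tested.

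**Figure D4:**
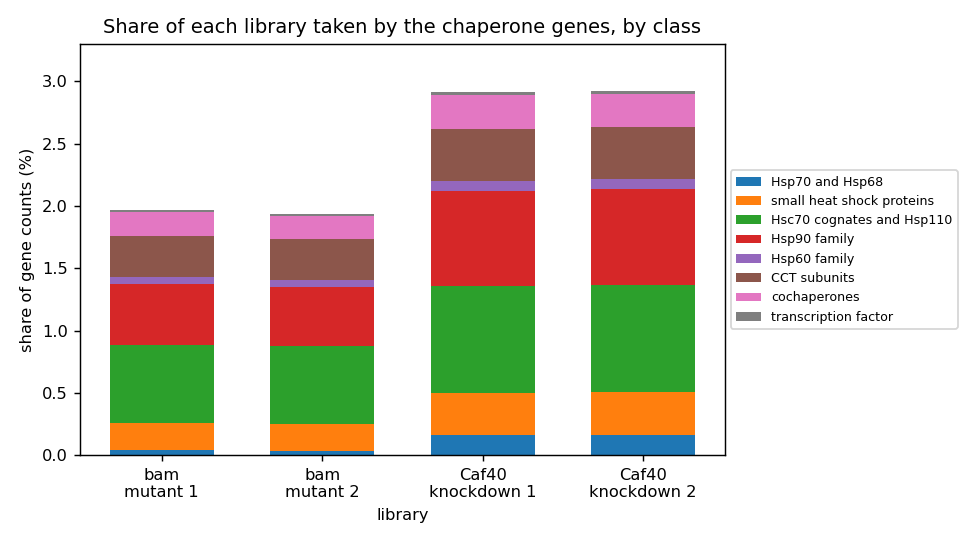
Share of all gene counts in percent (y axis) taken by each class of chaperone genes, stacked, in each of the 4 libraries (x axis). The stacks reach 1.97% and 1.94% in the bam mutant, against 2.91% and 2.92% in the knockdown, and the Hsp70 and Hsp68 class at the bottom goes from 0.04% in each bam mutant library to 0.16% in each knockdown library.

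Of the 4 Hsp60 genes, 1 was higher, 1 was lower and 2 were not called, beside 63.7% of all genes called. Hsp60A, the mitochondrial chaperonin, had 514 and 493 CPM in the bam mutant, against 775 and 711 CPM in the knockdown (log2 fold change 0.56, adjusted p = 0.0017), and -0.10 with germline scaling. Hsp60C, a paralog required in early spermatogenesis and in tracheal development, was lower in the knockdown, with 108 and 113 CPM against 23.9 and 36.0 CPM (-1.88, SE 0.18, adjusted p = 0.00051). The groups stood far apart, and Hsp60C counts went from 21% and 22.8% of Hsp60A counts in the bam mutant to 3.08% and 5.07% in the knockdown, a 5.37-fold lower ratio. Somatic cyst, muscle and hemocyte markers were lower in the same libraries, as were the lower members Hsp67Ba, Hsc70-2 and stv, and the part of those cells in these values was not tested.

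The CCT subunits, which together fold actin and tubulin, were measured for CCT1 to CCT7. None was lower, 3 were higher and 4 were not called, so 42.9% were called, beside 63.7% of all genes. The log2 fold changes ran from 0.06 to 0.65 with a median of 0.17, and with germline scaling all 7 fell on the negative side (-0.60 to -0.01). CCT4 had 535 and 510 CPM in the bam mutant, against 863 and 778 CPM in the knockdown (0.65, adjusted p = 0.0013), CCT6 had a change of 0.40 (adjusted p = 0.0035) and CCT3 one of 0.35 (adjusted p = 0.0086). CCT1, CCT2, CCT5 and CCT7 lay between 0.06 and 0.17, and CCT2 and CCT5 stood at 0.22 and 0.23 without knockdown replicate 2. With upper quartile scaling CCT1, CCT2, CCT5 and CCT7 were all called higher (0.20, 0.26, 0.31 and 0.21). The proteins are built into the ring in equal numbers, yet their RNA levels per kb ranged over 1.5-fold in the bam mutant (CCT6 at 182 to CCT4 at 273 CPM per kb) and over 1.87-fold in the knockdown (CCT7 at 229 to CCT4 at 428 CPM per kb). CCT4 counts were 98.5% and 96.8% of CCT1 counts in the bam mutant, against 148% and 146% in the knockdown.

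All 5 cochaperones among the members were called, 4 higher and 1 lower, beside 63.7% of all genes called. Stip1, which bridges Hsp70 and Hsp90, had 531 and 498 CPM in the bam mutant, against 919 and 840 CPM in the knockdown (log2 fold change 0.77, SE 0.08, adjusted p = 0.00065), and was called at 0.12 with germline scaling (adjusted p = 0.049). DnaJ-1, a heat-inducible J-domain protein, had 319 and 292 CPM against 492 and 454 CPM (0.63, adjusted p = 0.0013, and -0.03 with germline scaling). Relative to Hsp83 in the same library, Stip1 counts were 11.7% in each bam mutant library and 13.0% and 12.7% in the knockdown, a 1.1-fold higher ratio. Smaller changes were fitted for Droj2, another J-domain protein (0.26, adjusted p = 0.040), and Cdc37, which brings kinases to Hsp90 (0.16, adjusted p = 0.040), and both turned negative with germline scaling (-0.40 and -0.49). Both calls were lost without replicate 1 of the bam mutant (0.20 and 0.10), without its replicate 2 (0.14 and 0.05) and without knockdown replicate 1 (0.13 and 0.09). In the DESeq2 Wald test Cdc37 was not called (0.13, adjusted p = 0.089), whereas Droj2 was (0.22, adjusted p = 0.0056).

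stv encodes Starvin, a BAG-domain cochaperone that releases nucleotide from Hsp70 and is known for its work in muscle. It was the lower cochaperone, with 165 and 160 CPM in the bam mutant, against 94.3 and 73.7 CPM in the knockdown (-0.95, SE 0.12, adjusted p = 0.0013). Its counts went from 3.57% and 3.56% of Hsc70-4 counts to 1.57% and 1.34%. Thus Hsp67Bc and stv, whose products bind each other, differed in opposite directions.

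Hsf, the transcription factor of the heat shock response, had nearly equal levels. It had 186 and 194 CPM in the bam mutant, against 218 and 210 CPM in the knockdown, which was fitted as 0.17 on the log2 scale (SE 0.06, adjusted p = 0.045). The knockdown values were above both bam mutant values, but Hsf was no longer called without replicate 1 of the bam mutant (0.05), without its replicate 2 (0.11) and without knockdown replicate 1 (0.10), and the direction was reversed with germline scaling (-0.49). In the DESeq2 Wald test Hsf was not called either (0.14, adjusted p = 0.057). RNA levels give no measure of Hsf activity, which is set on the protein.

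Hsc70-1, Hsc70-2, Hsp60B and Hsp60D were the 4 members, of 39 tested, whose levels differed by more than 2 on the log2 scale between the knockdown libraries. Hsp60B, a paralog needed for the individualization of spermatids, had 0.327 and 0.376 CPM in the bam mutant, 0.166 CPM in knockdown replicate 1 and 3.96 CPM in replicate 2. Hsp60D, a further paralog, had 0.265 and 0.225 CPM, then 0.0332 CPM (1 count, exact Poisson 95% interval 0.00084 to 0.185) and 3.62 CPM (105 counts). In both genes the bam mutant libraries lay between the knockdown libraries. Hsc70-1, a cognate gene, had 0.591 and 0.698 CPM in the bam mutant, then 0.764 and 4.38 CPM. Hsc70-2, another cognate gene, had 12.3 and 12.9 CPM in the bam mutant, against 0.532 and 3.65 CPM in the knockdown, and here both knockdown libraries were below both bam mutant libraries.

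The log2 ratio of knockdown replicate 2 over replicate 1 was 2.49 for Hsc70-1, 2.74 for Hsc70-2, 4.44 for Hsp60B and 6.19 for Hsp60D, while for the other 35 tested members it was within 1 in either direction. No member differed by more than 1 between the bam mutant libraries. Over all 10854 genes tested, 696 had a log2 ratio over 2 in either direction between the knockdown libraries and 90 between the bam mutant libraries. Markers of spermatids, the haploid cells after meiosis, differed in the same direction between the knockdown libraries. Knockdown replicate 2 exceeded replicate 1 for all 9 spermatid genes tested (median log2 ratio 5.41). Hsc70-2 was highest in the bam mutant (12.3 and 12.9 CPM), and Hsc70-1 was higher in both knockdown libraries than in both bam mutant libraries. The spermatid list summed to 9.23 and 10.7 CPM in the bam mutant, 4.25 CPM in knockdown replicate 1 and 135 CPM in replicate 2. None of the 11 was at 0 in any library, 1 of the 9 tested was called higher in the knockdown, and their part in the 4 chaperone genes was not tested. With both replicates, Hsc70-1 (1.99, adjusted p = 0.078), Hsp60B (2.55, adjusted p = 0.13) and Hsp60D (2.88, adjusted p = 0.16) were not called, whereas Hsc70-2 was called lower (-2.60, SE 0.78, adjusted p = 0.032). Without knockdown replicate 1 the first 3 were called at 2.72, 3.45 and 3.82, and without knockdown replicate 2 Hsp60D reversed to -2.83 (adjusted p = 0.043). The call for Hsc70-2 was lost without replicate 1 of the bam mutant (-2.69) and without its replicate 2 (-2.62). It was also lost in edgeR's test with upper quartile scaling (-2.42, adjusted p = 0.058) and with library size alone (-2.47, adjusted p = 0.059).

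**Figure D5:**
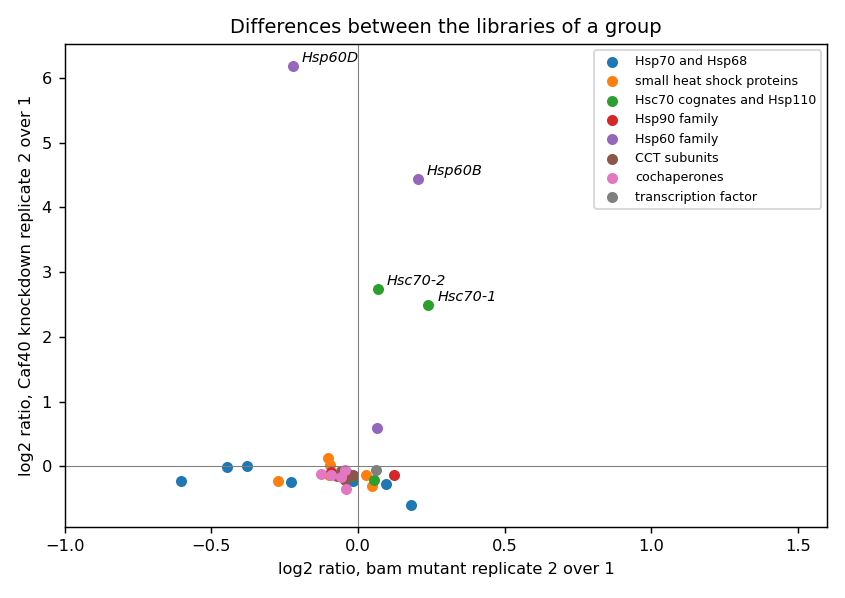
Log2 ratio of replicate 2 over replicate 1 in the bam mutant (x axis) and in the knockdown (y axis) for the 39 tested members, 1 point per gene, coloured by class. Of these, 35 lie within 1 of 0 on both axes, and Hsc70-1, Hsc70-2, Hsp60B and Hsp60D lie at 2.49 to 6.19 on the knockdown axis.

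Other cochaperones, taken from a list of genes that work with Hsp70 and Hsp90, were mixed. Of 20 tested, 7 were higher and 8 were lower, beside 30.7% and 33% of all genes, and 5 were not called. Their median log2 fold change was -0.03. With germline scaling 1 was higher and 17 were lower, and the median was -0.69. The highest was spag (1.04, adjusted p = 8.6e-05, and 0.39 with germline scaling), whose product works with Hsp90 in building snoRNA and polymerase complexes, and it was followed by Sil1 (0.64, and -0.02 with germline scaling), an exchange factor of the endoplasmic reticulum. Fkbp59, an Hsp90-binding immunophilin, was also higher (0.46), and lower with germline scaling (-0.19). The J-domain genes mrj, jdp and Csp were lower (-1.10, -1.03 and -0.98), whereas Tpr2 was higher (0.32) and DnaJ-H was not called (-0.01). Pfdn2, Pfdn4, Pfdn5 and Pfdn6, subunits of prefoldin, which hands actin and tubulin to CCT, were lower (-0.58 to -0.26). Of its other subunits, mgr was higher (0.28) and Pfdn1 was not called (-0.17). With germline scaling Tpr2, DnaJ-H, mgr and Pfdn1 were all lower (-0.34, -0.67, -0.38 and -0.83). CG14207, a small heat shock protein gene also known as HspB8 that the name rule did not take, had 156 and 155 CPM in the bam mutant, against 92.6 and 86.7 CPM in the knockdown (-0.80, adjusted p = 0.00019).

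Genes of protein folding in the endoplasmic reticulum were mostly lower. Of 8 tested, 6 were lower and 1 was higher, beside 33% and 30.7% of all genes, and 1 was not called. The median was -0.40 on the log2 scale, and all 8 were lower with germline scaling. The stress sensor genes Atf6 (-1.30) and Ire1 (-0.39), the transcription factor genes crc (-0.58) and Xbp1 (-0.42), and the folding factors ERp60 (-0.41) and Calr (-0.36) were lower, and PEK, a kinase that slows translation, was higher (0.51), and lower with germline scaling (-0.15). Beside them, the chaperones of that compartment among the members, Hsc70-3 and Gp93, were not called, and their direction turned with the scaling. With germline scaling both were called lower (-0.57 and -0.65), and with upper quartile scaling both were called higher (0.24 and 0.16).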

How the data were processed

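Poly(A) RNA libraries were made by the authors with a strand-specific kit. Reads were trimmed with Trim Galore and aligned to dm6 (BDGP6) with STAR; versions are not given in the sources used here. The authors deposited raw counts of read pairs per gene and library, unstranded and for each strand. The counts of the strand the kit reads were used (the opposite strand held 2.47% to 2.54%). The 4 summary entries that name no gene (26.9% to 30.8% of pairs, 1.84% to 2.66% multimapping) were left out. A deposited DESeq2 table of the authors' comparison (fold changes and p-values) was not used, nor were 4 columns of a normalised table, whose names call the bam mutant libraries wild type at 0 h after heat shock.

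Genes were kept by filterByExpr, put on 1 scale by TMM (trimmed mean) factors and tested in R 4.3.3 with edgeR 4.0.16 (the two-sided glmQLFTest on a glmQLFit with group as only term, Benjamini-Hochberg over all genes kept, call at 0.05), and the code was tested on simulated data. The authors' test, DESeq2 (1.42.0 here), was an alternative, beside other scalings, filters, strands, depth, a replicate block, summed Hsp70 copies and leaving out each library. With 2 libraries against 2, a permutation test of 1 gene cannot reach 0.05. Levels are CPM of the scaled library, and 3 counts, the limit a count of 0 allows, equal 0.0265 to 0.103 CPM, for counting error only. Symbols were found for 17252 of 17559 IDs, and exonic lengths, overlaps and coordinates came from Ensembl release 115 (BDGP6.54). CCT8 was not analysed here. All members are named, with values per library for an absolute log2 fold change of at least 1 or a special role and for some others chosen after their values were seen. Members, lists (cochaperones, endoplasmic reticulum folding, other stress genes and the markers) and comparisons were chosen with earlier results of these data known.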

Additional observations from a re-analysis of the deposited data

How the results depend on the processing

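Of the 25 called members, 11 kept direction and call in each of 15 alternatives that gave a value and 19 did so in all but germline scaling. Germline scaling gave 739 higher and 7061 lower genes, 8 higher and 22 lower members and a member median of -0.31, since it lowers every fold change by nearly the same amount. It changed the sign of CCT1 (-0.60), CCT2 (-0.55), CCT3 (-0.31), CCT4 (-0.0074), CCT5 (-0.49), CCT6 (-0.26), CCT7 (-0.60), Hsc70-3 (-0.57), Hsc70-4 (-0.32), Hsc70-5 (-0.14), Hsp23 (-0.59), Hsp27 (-0.33), Hsp60A (-0.10), Hsp83 (-0.021), DnaJ-1 (-0.026), Droj2 (-0.40), Hsf (-0.49), Cdc37 (-0.49), Gp93 (-0.65) and Trap1 (-0.63). Of these, CCT4, Hsp60A, Hsp83 and DnaJ-1 lost their calls and were not called lower, whereas the others were called lower. The member median was 0.50 with upper quartile scaling, 0.44 with library size alone, 0.32 with DESeq2 and 0.20 with no filter beyond 1 count. Leaving out 1 library gave medians of 0.24 to 0.31 and 1915 to 4042 genes called higher (1915 without bam mutant replicate 2, 2057 without bam mutant replicate 1), and Hsp60D ranged from -2.83 (without knockdown replicate 2) to 3.82. The cause of these shifts was not tested. Deviations of same-numbered libraries correlated at 0.25 over all genes, but the samples share only a number. With the replicate block 19 members were higher and 5 lower (median 0.35, summed Hsp70 1.92), Hsf and Cdc37 lost their calls and Hsp70Bc gained one (-0.35). A count of 3 equalled 0.0265 and 0.0322 CPM in the bam mutant and 0.0997 and 0.103 CPM in the knockdown libraries, so genes at low levels were measured less precisely in the knockdown.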

Other observations

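Stress genes outside the chaperone families were lower in the knockdown. Of 8 tested, 7 were lower and none was higher, beside 33% and 30.7% of all genes, and 1 was not called. The median log2 fold change was -3.03. MtnA, a metallothionein that binds copper and other metals, had 7575 and 6278 CPM in the bam mutant and 1620 and 1187 CPM in the knockdown (-2.30, adjusted p = 0.00028), so the groups did not overlap. The metallothionein genes MtnB, MtnD and MtnE (-3.93, -3.08 and -2.97) and the Turandot genes TotA, TotC and TotM (-2.56, -3.83 and -3.81), which encode secreted stress proteins, were lower too, but at levels under 8 CPM in every library. lncRNA:Hsromega, a noncoding RNA transcribed strongly upon heat shock, had 85.6 and 72.0 CPM in the bam mutant and 87.2 and 65.7 CPM in the knockdown, which overlapped (-0.04, 95% confidence interval -0.43 to 0.34), and was called lower with germline scaling (-0.71). Summed Hsp70 and Hsp68, by contrast, were higher under both scalings, although the single copy Hsp70Bc was called lower with germline scaling (-1.01). Hemocyte markers were lower in the same libraries (4 of 4), and their part in these values was not tested.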
